A study of Mus musculus with 16 samples.

Results

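The regions described here are distal H3K27ac peaks of control mouse late 2-cell embryos that carried no H3K4me3 and were also found in embryos given a mutant Hdac1 mRNA. They were selected on the measured peaks of both conditions and both marks, so the overlaps named next are part of the choice and not a finding. A region had to lie on chromosomes 1 to 19, be 2000 to 10000 bp wide, overlap a mutant H3K27ac peak by at least 1 bp and overlap no H3K4me3 peak of either condition. Its midpoint also had to lie over 10 kb from both ends of every protein-coding gene of RefSeq on GRCm38/mm10. These criteria left 1676 regions of the 77444 peaks in the control list. Of the 73320 peaks on chromosomes 1 to 19, 22810 had the required width, 13208 of these were distal, 3454 of those had no H3K4me3, and 1676 were shared with the mutant list. The remaining 1778 of the 3454 distal peaks without H3K4me3 had no overlap in the mutant list and are called control-only regions below.

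Embryos were collected 36 h after fertilization. Control embryos had been injected with water (H2O) as zygotes, and mutant embryos with mRNA of an Hdac1 mutant (MU) at the same stage. Both marks were profiled by ultra-low-input native chromatin immunoprecipitation (ULI-NChIP-seq) after digestion with micrococcal nuclease, and each condition and mark had 2 immunoprecipitation and 2 input libraries. The labels name neither the mouse strain, the kind of mutation nor the number of embryos pooled, and they describe no removal of the embryos' own Hdac1. Each condition and mark is represented by a single list of peak positions without heights, so no value below has a replicate error, the depth is unknown and no test of the conditions was made. The lists differ in their limits. The smallest gap between peaks is 681 bp in the control and 602 bp in the mutant H3K27ac list, and the smallest peak 168 and 149 bp. Whether the settings of peak calling differed is not given in the sources used here. With common limits imposed on all lists after seeing the data, 47.2% rather than 48.5% of distal peaks without H3K4me3 were shared. The intervals given are 95% Wilson intervals, which cover counting error only. The lists hold no expression values, so the stage could not be checked against marker levels.

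Acetylated lysine 27 of histone H3 (H3K27ac) marks promoters and enhancers in use, whereas trimethylated lysine 4 (H3K4me3) is found mainly at promoters. An H3K27ac region away from gene starts and without H3K4me3 is therefore the usual position-based description of a candidate active enhancer. In these lists, however, H3K4me3 was also common far from gene ends. Of the 13208 distal control H3K27ac peaks of the required width, 9754 overlapped it in at least 1 condition. Whether the regions act as enhancers was not tested. Hdac1 encodes a histone deacetylase, which takes acetyl groups off, and the late 2-cell stage is the time of major zygotic genome activation in the mouse.

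The word distal refers here to gene ends only. Of the 1676 regions, 1084 had their midpoint inside the body of a protein-coding gene, that is 64.7% (interval 62.4 to 66.9), and 592 lay between genes. In all, 22 regions contained the complete window of 250 bases before and 50 bases after an annotated RNA start. These starts belonged to 17 long noncoding RNA genes and to inner starts of 5 protein-coding genes, Rusf1, Map4, Ctnna3, Nek10 and Pacsin2. In 12 of the 22 genes at least 1 such window also lay wholly inside a mutant H3K27ac peak. These windows are the only parts of the regions whose sequence was at hand. In 9 genes such a window also held a match to a searched motif. Shown are the 5 of these whose region had the highest share covered in mutant embryos, and Pacsin2 as the only window with the Nr5a2-type match. The sequences are from RefSeq (GRCm38.p6) and run 5′ to 3′ on the strand of the RNA. Capitals mark matches on either strand.
Nek10 (chr14:14820565-14820864, plus strand): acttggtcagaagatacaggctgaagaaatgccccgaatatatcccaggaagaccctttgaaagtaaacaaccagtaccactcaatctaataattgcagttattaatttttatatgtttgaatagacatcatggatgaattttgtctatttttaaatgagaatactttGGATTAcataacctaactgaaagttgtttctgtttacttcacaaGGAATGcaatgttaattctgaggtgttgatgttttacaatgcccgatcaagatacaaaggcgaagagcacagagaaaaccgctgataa
Ctnna3 (chr10:63457261-63457560, plus strand): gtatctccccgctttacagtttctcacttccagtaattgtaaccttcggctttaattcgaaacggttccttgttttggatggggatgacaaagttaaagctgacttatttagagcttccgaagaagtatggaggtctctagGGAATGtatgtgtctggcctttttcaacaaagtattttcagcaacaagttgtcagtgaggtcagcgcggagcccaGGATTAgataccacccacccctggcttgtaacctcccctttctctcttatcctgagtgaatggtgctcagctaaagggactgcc
Gm33162 (chr3:101517056-101517355, minus strand): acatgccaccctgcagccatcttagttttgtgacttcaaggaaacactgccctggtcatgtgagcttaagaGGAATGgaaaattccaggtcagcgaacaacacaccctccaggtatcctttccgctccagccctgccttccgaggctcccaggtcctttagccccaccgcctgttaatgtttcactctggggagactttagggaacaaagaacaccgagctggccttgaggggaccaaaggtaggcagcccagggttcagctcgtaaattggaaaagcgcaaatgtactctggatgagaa
Gm46325 (chr12:17458880-17459179, minus strand): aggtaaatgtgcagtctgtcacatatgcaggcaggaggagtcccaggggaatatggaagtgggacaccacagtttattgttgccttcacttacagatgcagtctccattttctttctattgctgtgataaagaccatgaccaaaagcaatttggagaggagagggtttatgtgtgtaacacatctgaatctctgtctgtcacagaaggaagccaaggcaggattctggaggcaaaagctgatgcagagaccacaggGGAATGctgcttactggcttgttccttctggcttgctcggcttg
Gm33753 (chr2:61452692-61452991, plus strand): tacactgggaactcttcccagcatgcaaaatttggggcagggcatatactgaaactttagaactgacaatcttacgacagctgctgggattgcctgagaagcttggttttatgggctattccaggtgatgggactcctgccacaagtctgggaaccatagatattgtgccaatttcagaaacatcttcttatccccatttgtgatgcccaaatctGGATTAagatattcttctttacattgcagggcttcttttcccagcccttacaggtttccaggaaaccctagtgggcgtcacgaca
Pacsin2 (chr15:83432801-83433100, minus strand): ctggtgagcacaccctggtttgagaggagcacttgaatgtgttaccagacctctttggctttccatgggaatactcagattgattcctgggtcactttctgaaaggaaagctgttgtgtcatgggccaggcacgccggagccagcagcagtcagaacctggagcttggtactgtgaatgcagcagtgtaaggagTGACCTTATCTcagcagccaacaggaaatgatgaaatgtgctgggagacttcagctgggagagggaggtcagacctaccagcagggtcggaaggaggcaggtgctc

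Motifs of 5 types were searched on both strands. The Nr5a2 type was AAGGTCA, the type known for orphan nuclear receptors. The Obox and Otx type was GGATTA, the Gata type AGATAA and the Tead type GGAATG, and the Klf type was searched as GGGNGTGG. In Pacsin2 the Nr5a2-type and Gata-type matches join on the opposite strand and appear as 1 run of capitals. Among all 26 windows inside the regions, some of which overlap each other, the Tead type occurred in 9, the Gata type in 6, the Obox and Otx type in 5, the Nr5a2 type in 1 and the Klf type in 0. Of the 31396 annotated windows on chromosomes 1 to 19, 14.6% held the Tead type, 11.2% the Gata type, 7.06% the Obox and Otx type, 4.69% the Nr5a2 type and 17.7% the Klf type. The windows inside the regions were poorer in CpG, with a median of 3.5 CpG (range 0 to 7) against 7 in all windows (quartiles 3 and 21). Their median GC content was 46% against 53%. The windows also differ in kind from all annotated windows, since the rule keeps out H3K4me3 and midpoints near the ends of coding genes. Of the 22 genes with a start in a region, 17 are long noncoding RNA genes. No like set of starts was compared, and the part of this choice in the CpG and GC values was not tested. The part of base composition in the motif counts was not tested.

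The regions behind these sequences differed in how much of them remained marked in mutant embryos. The region at the inner start of Nek10, a protein kinase gene, covered 5876 bp and 98.7% of it lay under a mutant H3K27ac peak of 7496 bp. At Ctnna3, which encodes a catenin of cell junctions, 92.1% of 3531 bp was covered by a mutant peak of 3252 bp. The regions at the noncoding RNA genes Gm33162, Gm46325 and Gm33753 were covered for 79.1%, 72.8% and 68.1%. At Pacsin2, whose product shapes membranes, 27.04% of 2522 bp was covered by mutant H3K27ac. The mutant peak over the printed window measured 5775 bp and lay mostly beyond the region. At Map4, a microtubule-associated protein gene, 72.5% of the region of 4834 bp was covered.

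The shared regions were limited by the rule to widths of 2000 to 10000 bp. Their median width was 3505 bp (quartiles 2608 and 4922 bp, widest 9906 bp), and together they covered 6.64 Mb of the 241.8 Mb under control H3K27ac on chromosomes 1 to 19. The control-only regions had a median width of 2820 bp, and shared distal peaks with H3K4me3 one of 5069 bp. At the limits of the rule, the narrowest region measured 2000 bp and the widest peak just excluded 1999 bp. At the upper limit these were 9906 and 10080 bp. The midpoint nearest to a gene end lay at 10007 bp, and the next one outside at 9968 bp. The smallest mutant overlap was 14 bp, while the nearest control-only region missed a mutant peak by 5 bp.

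Sharing with mutant embryos was lower in distal peaks without H3K4me3 than in control H3K27ac peaks with H3K4me3 of the same width range. The share was 48.5% (46.9 to 50.2), against 64.4% of all 22810 control peaks of 2000 to 10000 bp. Distal peaks with H3K4me3 in the control list alone were shared in 61.4% (59.7 to 63.0), those with it in the mutant list alone in 58.8% (56.3 to 61.3), and those with it in both lists in 73.1% (71.8 to 74.3). Near gene ends, the share was 52.8% (49.9 to 55.7) without H3K4me3 and 69.8% (68.9 to 70.8) with it. Part of these differences goes with width, since sharing rose with width in all 4 classes. Among peaks of 2 to 3 kb, 38.03% of distal peaks without H3K4me3 were shared and 51.5% of those with it. Among peaks of 5 to 10 kb the shares were 66.9% and 77.0%. Within each of the 3 width groups, the interval for distal peaks without H3K4me3 lay below that for distal peaks with it. As sharing is part of the rule, these shares describe the classes from which the regions were drawn.

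**Figure D1:**
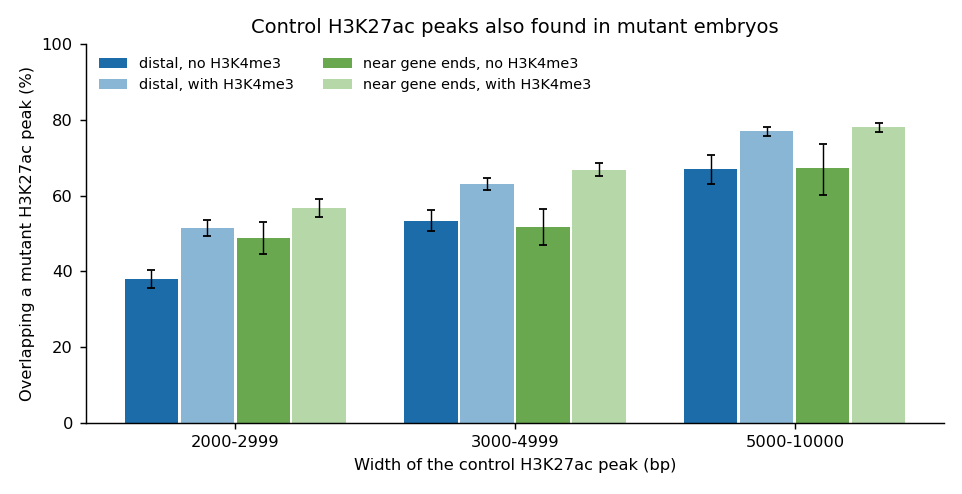
Share of control H3K27ac peaks that overlap a mutant H3K27ac peak (y axis, percent) by width of the control peak (x axis, bp), for 4 classes by gene distance and H3K4me3; error bars are 95% Wilson intervals. Distal peaks without H3K4me3 (dark blue) stand at 38.03% in the narrowest and 66.9% in the widest group, below distal peaks with H3K4me3 in each.

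Position relative to genes also went with sharing. Among distal peaks without H3K4me3, 52.02% (49.9 to 54.2) of those inside gene bodies were shared, against 43.2% (40.6 to 45.9) of those between genes. Sharing was 52.02% at 10 to 20 kb from a gene end, 50.2% at 20 to 100 kb and 41.7% (38.5 to 45.05) beyond 100 kb. The regions thus leaned towards gene bodies more than the control-only regions, of which 56.2% (53.9 to 58.5) lay in gene bodies. Of shared distal peaks with H3K4me3, 53.1% (51.9 to 54.3) lay in gene bodies.

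In mutant embryos the regions were marked only in part. Mutant H3K27ac covered 3.02 Mb of their 6.64 Mb, or 45.4%, and the median region was covered for 43.3% of its width (quartiles 20.3% and 71.9%). Under 50% of the width was covered in 939 regions, 56.0% (53.6 to 58.4), whereas 40.0% of all 14698 shared control peaks of this width range fell below that limit. The share was 40.9% (39.7 to 42.05) for distal shared peaks with H3K4me3, 45.8% (41.9 to 49.8) for peaks near gene ends without it and 33.8% (32.6 to 35.03) for peaks near gene ends with it. In 189 regions under 10% of the width was covered, and 141 regions were covered completely. Regions between genes were below 50% coverage in 63.0% (59.05 to 66.8) and regions in gene bodies in 52.2% (49.2 to 55.2). The overlap itself chose the regions, so these shares are a description. With the mutant list as the base of the same rule, 48.4% of the regions were covered for under 50% by control H3K27ac, so partial overlap was seen from both sides.

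**Figure D2:**
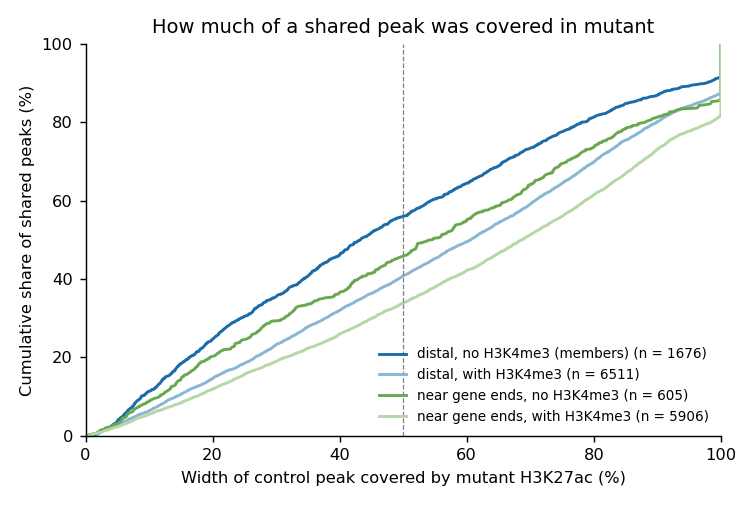
Cumulative share (y axis, percent) of shared control H3K27ac peaks of 2000 to 10000 bp against the part of their width covered by mutant H3K27ac (x axis, percent), by gene distance and H3K4me3. At the dashed line (50%), the curve of the regions stands at 56.0% and that of peaks near gene ends with H3K4me3 at 33.8%.

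The mutant peaks at the regions were mostly narrower than the regions themselves. The summed width of the mutant peaks met by a region had a median of 2357 bp, and its ratio to the region's width had a median of 0.66 (quartiles 0.31 and 1.17). The mutant sum was narrower in 1157 regions and wider in 519. The median ratio was 0.88 in distal shared peaks with H3K4me3, 0.89 near gene ends without H3K4me3 and 1.09 near gene ends with it. The mutant list as a whole is made of more and narrower peaks, with 114737 peaks on chromosomes 1 to 19 against 73320 in the control list, which cover 9.64% and 9.83% of these chromosomes. The summed mutant width reached at least 2 times the region's width in 158 regions, 9.43% (8.12 to 10.9), against 16.2% of all shared control peaks of this width range. This comparison depends on the list from which peaks are chosen. When the same rule was applied to the mutant list, 1956 mutant peaks qualified and the ratio of control to mutant width had a median of 0.99, so the narrowing was not seen from that side.

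A region usually met a single mutant peak. This held for 1313 regions, while 314 met 2, 43 met 3, 5 met 4 and 1 met 5 mutant peaks. The share with 2 or more was 21.7% (19.8 to 23.7), against 28.5% of all shared control peaks of this width range. This share followed width, with 12.2%, 20.2% and 38.6% at 2 to 3, 3 to 5 and 5 to 10 kb. Distal shared peaks with H3K4me3 had 13.2%, 22.01% and 41.6%, within overlapping intervals. It also depended on how peaks are joined, and merging peaks less than 1 kb apart left 10.4%. Of the 1313 regions with 1 mutant peak, 525 contained the whole mutant peak, 141 lay wholly inside it and 647 overlapped it at one edge. Nested and edge overlaps were thus about equally frequent.

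The surroundings of the regions were richer in H3K27ac than the chromosomes at large. At 10 kb from the midpoint, 22.6% of positions lay under control H3K27ac and 18.3% under mutant H3K27ac, averaged over both sides. The lists cover 9.83% and 9.64% of chromosomes 1 to 19. Around control-only regions the values were 16.1% and 12.3%. Shared and control-only regions are told apart by the mutant list itself. Their median widths were 3505 and 2820 bp, and they were not matched for width. The mutant value around control-only regions was 10.1% at 5 kb and 14.4% at 20 kb. Around shared regions it was 22.0% and 19.5%. How far the rule shapes the mutant values at 10 kb was not tested. Mutant H3K27ac covered 50.7% of the midpoints of the regions. Within about 5 kb of the midpoint the H3K27ac values of both conditions are shaped by the rule, which limits the width of the control peak and requires a mutant peak, so they were not compared there. H3K4me3, which the rule keeps out of the regions, was at 13.6% in control and 12.02% in mutant embryos at 10 kb, and at 16.6% and 15.9% at 20 kb. The lists cover 10.03% and 11.1% of the chromosomes with H3K4me3.

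**Figure D3:**
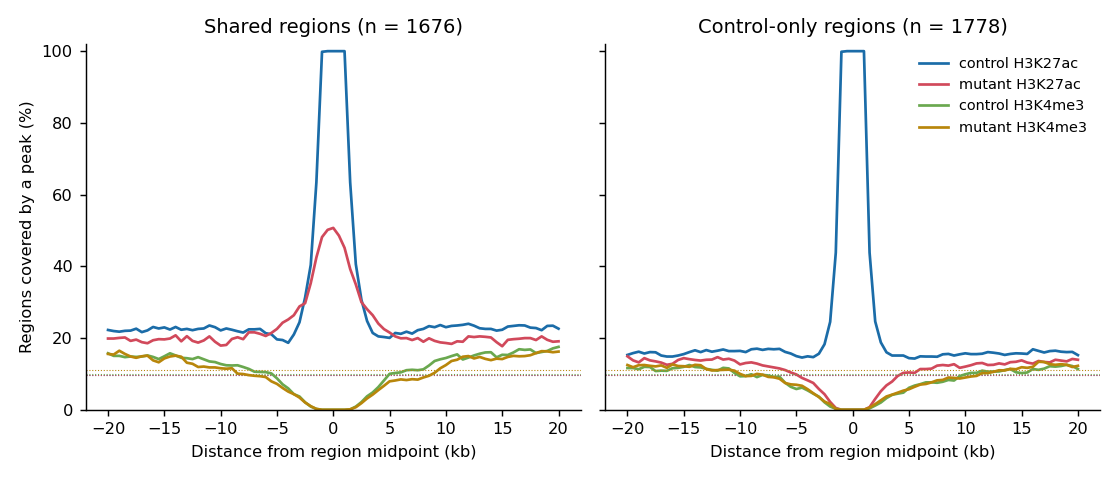
Share of regions (y axis, percent) under a peak of each list at distances of up to 20 kb from the midpoint (x axis, kb), for the 1676 shared and the 1778 control-only regions; dotted lines give the share of chromosomes 1 to 19 that each list covers. The control H3K27ac value of 100% and the H3K4me3 value of 0 at the midpoint follow from the rule, as does the mutant H3K27ac value of 0 on the right.

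H3K4me3 was absent from the regions but not far away. The nearest control H3K4me3 peak lay at a median gap of 7265 bp (quartiles 2859 and 17063 bp), and the nearest mutant one at 8101 bp (3342 and 17201 bp). Within 10 kb, 59.6% (57.2 to 61.9) of the regions had a control and 58.05% (55.7 to 60.4) a mutant H3K4me3 peak. In control-only regions the shares were 51.7% (49.4 to 54.0) and 53.2% (50.9 to 55.5). The 2 conditions differed by less than their intervals in both sets. Only 32 regions had no H3K4me3 peak of either condition within 50 kb. Other control H3K27ac peaks were close as well, within 5 kb of 61.3% (59.0 to 63.6) of the regions and 51.2% (48.9 to 53.5) of the control-only regions. A control H3K27ac domain wider than 10 kb lay within 50 kb of 625 regions, 37.3% (35.01 to 39.6), against 26.9% (24.9 to 29.05) of control-only regions.

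The regions inside genes lay in long genes with marked starts, as did the control-only regions. The 1084 regions fell in 886 host genes, whose median length was 111.3 kb. Only genes over 20 kb can hold a midpoint this far from both ends, and these genes have a median length of 49.3 kb. Gene bodies made up 37.2% of the 1885 Mb of distal sequence but held 64.7% of the regions, which gives 1.55 regions per Mb in gene bodies and 0.50 between genes. Annotated starts were at hand for 716 host genes. Within 2 kb of such a start, 94.3% (92.3 to 95.8) had a control H3K4me3 peak and 90.9% (88.6 to 92.8) a mutant one. Of all 7568 coding genes over 20 kb with an annotated start, the shares were 84.8% (83.9 to 85.5) and 80.9% (80.05 to 81.8). H3K27ac marked the starts of 67.9% (64.4 to 71.2) of host genes in control and 63.3% (59.7 to 66.7) in mutant embryos, against 50.8% (49.6 to 51.9) and 52.1% (50.96 to 53.2) of all coding genes over 20 kb. Genes that held only control-only regions were similar in length (median 103.4 kb) and in H3K4me3 at their starts, with 91.04% (88.2 to 93.3) marked in the control list and 87.6% (84.4 to 90.2) in the mutant list. Control H3K27ac marked the starts of 53.6% (49.1 to 57.9) of them and mutant H3K27ac those of 58.04% (53.6 to 62.3). Of the 4 lists, only control H3K27ac had intervals that did not overlap between these genes and the host genes. In 10 host genes the region itself lay within 2 kb of a start and is counted as its mark.

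The difference at gene starts between host genes and other coding genes held at each gene length examined for H3K27ac of both conditions. At 20 to 50 kb, 74.1% (65.5 to 81.2) of host genes and 54.7% (53.2 to 56.3) of other coding genes had control H3K27ac at a start. Among genes of 50 to 100 kb, 79.9% (73.9 to 84.8) of host genes and 48.4% (46.05 to 50.8) of other coding genes had control H3K27ac at a start. For genes of 100 to 200 kb the values were 70% (63.6 to 75.7) and 38.0% (34.8 to 41.3), and above 200 kb 47.2% (39.9 to 54.5) and 27.3% (23.7 to 31.2). For mutant H3K27ac the host genes stood at 64.7%, 64.7%, 68.2% and 54.5% in genes of 20 to 50, 50 to 100, 100 to 200 and over 200 kb. Other coding genes stood at 53.5%, 51.9%, 45.1% and 38.6%, and the intervals overlapped at none of these lengths. H3K4me3 of both conditions was also more frequent at the starts of host genes, with intervals that overlapped above 200 kb only. Of the 263 nearest genes within 100 kb of regions between genes, 47.5% (41.6 to 53.6) had control H3K27ac at a start, beside 48.1% of all 16456 protein-coding genes with an annotated start. The nearest genes were longer, with a median of 38.04 kb against 17.5 kb, and were not compared by length. Inside host genes with a known strand, the regions were spread over the middle of the gene. When each gene was divided into 5 equal parts, the part at the gene's start held 104 of 879 regions, the middle part 239 and the part at its end 113, and 47.9% (44.6 to 51.2) lay in the 5′ part (the first 50% of the gene). Shared distal peaks with H3K4me3 lay in the 5′ part in 53.8% (51.9 to 55.6). The low shares at both ends follow from the distance the rule asks for.

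**Figure D4:**
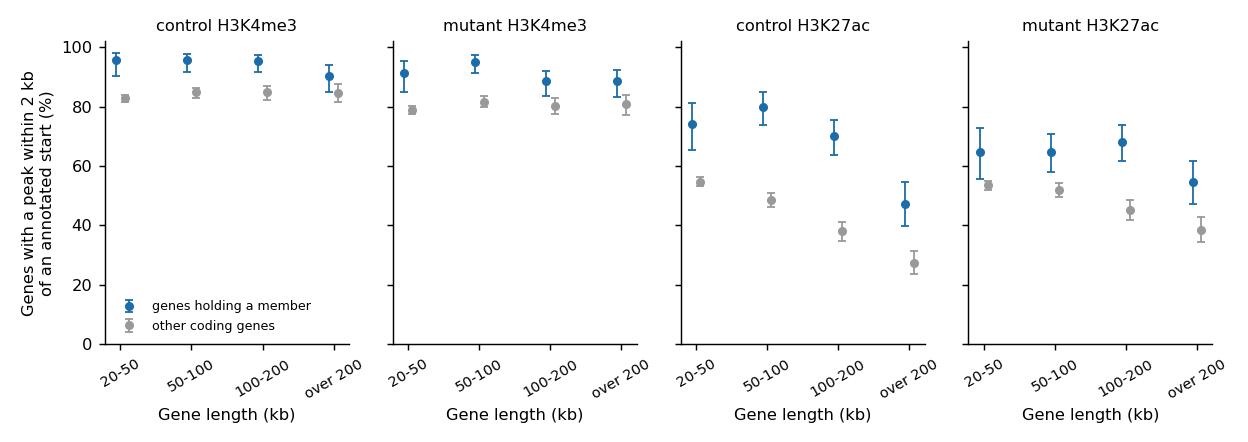
Share of protein-coding genes (y axis, percent) with a peak of each list within 2 kb of an annotated start, by gene length (x axis, kb), for genes holding a region (blue) and other coding genes (grey); error bars are 95% Wilson intervals. For H3K27ac of both conditions the blue points stand above the grey ones at each length, for example 70% against 38.0% at 100 to 200 kb in the control list.

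Most host genes held a single region (729 genes), 124 held 2, and 33 held 3 or more. Btbd9, a gene for a BTB-domain protein, held 5 regions in 367 kb, and 54.02% of their bases were covered in mutant embryos. The 6 genes with 4 regions were Scmh1 of the Polycomb group, Spag9, a scaffold of kinase signalling, Smg6 of nonsense-mediated RNA decay, Rabgap1l, Sugct and Anks1b. In the shortest of them, Scmh1 (125 kb), 65.7% of the region bases were covered in mutant embryos, and in Sugct 34.4%. Coverage varied widely between host genes with 3 regions. It was 89.5% in Sgms1, a sphingomyelin synthase gene, 87.7% in Alms1, a gene of the centrosome, and 76.4% in Nup98, a nuclear pore gene. It was 4.66% in Arid4b, which encodes a subunit of an Hdac1 corepressor complex, 16.02% in Vps13b and 17.4% in Pard3, a gene of cell polarity. These host genes were singled out after their values were seen.

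All 19 chromosomes held regions. Their number per Mb of distal sequence lay between 0.67 on chromosome 15 and 1.07 on chromosome 11, with 0.89 over all 19. The share of distal peaks without H3K4me3 that were shared ranged from 41.9% on chromosome 15 to 53.9% on chromosome 4. The median distance to the next region was 281 kb, and 346 regions (20.6%) had another one within 50 kb. The busiest window of 1 Mb held 11 regions, on chromosome 7 from 101266603 to 102266602, 10 of them in the bodies of coding genes. The next held 8 each, on chromosome 4 (58881889 to 59881888, around Susd1 and Ptbp3) and chromosome 6 (148551998 to 149551997, around Ipo8 and Dennd5b).

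In the chromosome 7 window 63.7% of the region bases were covered in mutant embryos. Nup98 held 3 of its regions, of 2284, 4216 and 4146 bp, which were covered for 90.9%, 86.9% and 57.8%. Clpb, a mitochondrial chaperone gene, also held 3, of 5616, 4207 and 4352 bp, covered for 47.9%, 82.8% and 72.3%. In Fchsd2, a gene of endocytosis, 2 neighbouring regions of 2252 and 5110 bp both met the same mutant peak of 7800 bp. That peak covered the first for 100% and ended inside the second, which begins at 101269419, at position 101269946. The second region met 2 mutant peaks with a summed width of 14594 bp, which together covered 65.5% of it. The regions in Arap1 (2060 bp) and in Numa1 (3607 bp), which encodes a spindle protein, were hardly covered, with 8.64% and 7.35%. The only region between genes, 27052 bp from Art2b, was covered for 83.0% of its 3152 bp. Low and high coverage thus stood side by side within 1 Mb.

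**Figure D5:**
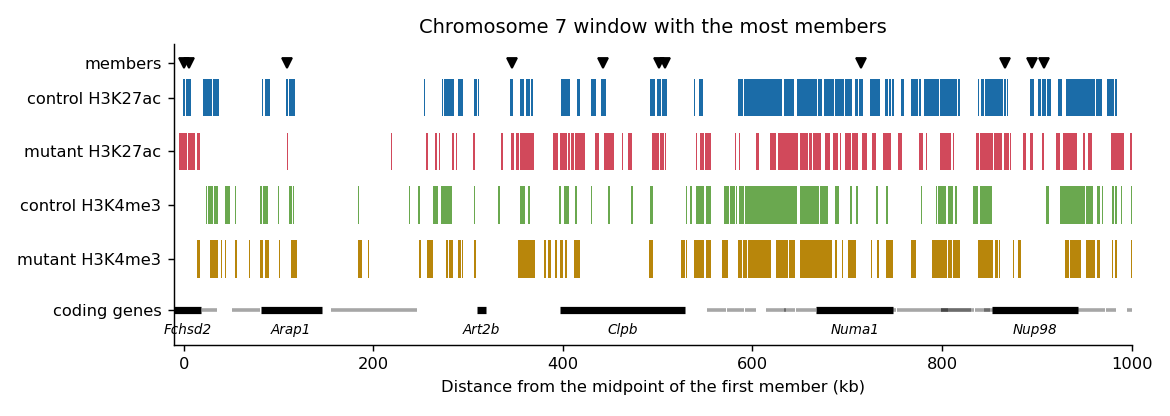
Peaks of the 4 lists and protein-coding genes in the chromosome 7 window, by distance from the midpoint of its first region (x axis, kb); triangles mark the 11 regions, and named black bars are their nearest genes. The regions lie between, not under, the H3K4me3 peaks, as the rule requires, and several stand close to other H3K27ac peaks.

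The widest regions differed in how much of them was covered. The widest, chr18:38648529-38658434 in Arhgap26, a gene of a GTPase-activating protein, covered 9906 bp and 37.6% of it was covered in mutant embryos. In the next, chr10:21936062-21945942 within the kinase gene Sgk1, 44.2% of 9881 bp was covered by 2 mutant peaks. The region chr18:42302701-42312448 in Rbm27, an RNA-binding protein gene, was covered for 8.04% of 9748 bp by a mutant peak of 784 bp. Another, chr1:155431533-155441279, lay 18962 bp from the phosphate exporter gene Xpr1, and 25.6% of its 9747 bp was covered.

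Among completely covered regions the largest was chr9:107792469-107801570 in the RNA-binding protein gene Rbm6, with 9102 bp inside a mutant peak of 10745 bp. Regions of 6738 bp in the ubiquitin ligase gene Ube3c (chr5:29591727-29598464), 6263 bp in Syt16 (chr12:74061921-74068183) and 6092 bp in Susd6 (chr12:80863613-80869704) followed. The region chr12:59325930-59331955, 106981 bp from Fbxo33, lay in a mutant peak of 12189 bp, 2.02 times its own 6026 bp. At the other end, regions entered the set through an overlap at their very edge. The region chr13:11910950-11913860 in Ryr2, a calcium channel gene, shared 14 bp of 2911 bp with a mutant peak. The region chr10:39076709-39079457 in the laminin gene Lama4 shared 20 bp of 2749 bp. Overlaps of 52 bp in Ankrd28 (chr14:31803846-31807245), 55 bp near Usp38 (chr8:80928160-80933277) and 114 bp near Cdh8 (chr8:98650859-98660044) made up 1.53%, 1.07% and 1.24% of the regions.

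Some regions lay deep in gene-poor sequence. In all, 361 regions (21.5%) were over 100 kb and 64 over 500 kb from every gene end, against 28.3% and 4.89% of control-only regions. The most remote was chr18:27748982-27752142, 1996042 bp from Celf4, with 22.5% of 3161 bp covered in mutant embryos. It was followed by chr14:91019842-91024289, 1991635 bp from the protocadherin gene Pcdh9 (16.9% of 4448 bp), and chr2:46928711-46930986, 1812406 bp from the transcription factor gene Zeb2 (42.7% of 2276 bp). All 3 mutant peaks there were narrow, with 710, 750 and 971 bp, and each lay inside its region.

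Lists of genes were used to ask which known genes had a region within 100 kb. Of all 20661 protein-coding genes on chromosomes 1 to 19, 3263 (15.8%) did. The counts were 9 of 29 matched genes of the 2-cell list, 6 of 24 oocyte genes, 7 of 32 genes of histone acetylation and H3K4 methylation, 4 of 20 pluripotency genes, 2 of 17 trophectoderm genes, 2 of 15 cumulus or granulosa genes and 4 of 36 genes of differentiated tissues. No test was made. The listed genes differ in length and neighbourhood, with a median length of 64.0 kb in the histone modifier list and 5.65 kb in the 2-cell list, against 17.5 kb for all genes. The 2-cell count includes Zscan4c, Zscan4d, Zscan4f, Obox3, Obox5 and Tdpoz1, members of families of similar copies where reads cannot always be placed.

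Of the 32 matched genes of histone acetylation and H3K4 methylation, 5 held a region in their own bodies. Among all 20661 protein-coding genes 886 did, and 9574 are over 20 kb long and could hold one. The list genes are longer, with a median of 64.0 kb against 17.5 kb, and were not matched by length. Ep300, an H3K27 acetyltransferase, held one of 4877 bp (chr15:81630824-81635700), covered for 73.6% by 2 mutant peaks that together measured 15977 bp. The acetyltransferase genes Kat6a and Kat6b held regions of 7422 bp (chr8:22877523-22884944) and 2165 bp (chr14:21647917-21650081), covered for 69.8% and 48.0%. In Kmt2c, an H3K4 methyltransferase, the region of 3718 bp (chr5:25380843-25384560) was covered for 63.2%. In Hdac4, a deacetylase gene, it was 22.7% of 3711 bp (chr1:91988670-91992380). Coverage in these 5 genes thus ranged from 22.7% to 73.6%.

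Regions also lay in or near genes of early lineages. Nr5a2, a nuclear receptor of early embryos, held a region of 5062 bp (chr1:136917986-136923047), covered for 63.7%. Near Esrrb, another orphan nuclear receptor gene, a region of 3218 bp at 24454 bp from the gene (chr12:86544474-86547691) lay wholly inside a mutant peak of 5329 bp. In Lifr, the receptor of leukaemia inhibitory factor, 82.2% of 2081 bp was covered (chr15:7178946-7181026), and in Lats1, a kinase of the Hippo pathway, 38.1% of 3007 bp (chr10:7698906-7701912). Among 2-cell genes, Zfp352 had a region of 5849 bp at 14119 bp (chr4:90201777-90207625), covered for 40.1%, and Tdpoz1 one of 3417 bp at 18934 bp, covered for 29.3%. The region next to Sp110, in the body of its neighbour Sp140, met 3 mutant peaks and was covered for 50.6% of 5374 bp. Near the oocyte gene Bcl2l10 the region of 4756 bp in Gnb5 was covered completely. Gata4, a transcription factor gene of later tissues, held a region of 2665 bp (chr14:63236047-63238711) covered for 69.5%. Near Star, a gene of steroid synthesis, the region lay in the body of Ash2l and was covered for 46.7% of 5260 bp.

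Noncoding genes were met by few regions. A long noncoding RNA gene overlapped 131 regions, 7.82% (6.63 to 9.20), and 179 control-only regions, 10.07% (8.75 to 11.6). Pseudogenes overlapped 34 regions, small nucleolar RNA genes 7 and a microRNA gene 1, Mir3103. The corresponding numbers of control-only regions were 24, 1 and 2.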

How the data were processed

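Peak positions of H3K27ac and H3K4me3 in late 2-cell embryos were analysed. The authors deposited 4 lists, 1 for each mark and condition, with chromosome, start and end of each peak (unit: position in bp) and no header. Per the submitters' processing notes, the tools included Bowtie2, Picard and MACS2 and the builds mm10 and GRCm38; parameters are not given in the sources used here, nor whether the 2 libraries behind a list were pooled. Depth is therefore unknown.

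Starts were taken as 0-based, as in BED files, and are given here 1-based. Genes came from a RefSeq table of GRCm38.p6 and start windows from RefSeq promoter sequences. Shared means an overlap of at least 1 bp; coverage is the share of a region's bases under mutant peaks. A region was assigned to the gene whose body lay nearest to its midpoint. Sequence before position 3 Mb of a chromosome was left out of the distal sequence. The computation used Python 3.11.15, numpy 2.4.6, pandas 2.3.3 and scipy 1.17.1, and was tested on simulated data, where membership and covered bases were recovered for 1140 of 1140 regions. The members and gene lists were chosen with earlier results of these data known. The regions named were the 5 widest, the 5 with the highest and the 5 with the lowest coverage, the 3 most remote, those of the busiest 1 Mb window, and the region nearest to each of the 15 listed genes closest to one. Of these regions, 1 is not reported here. The genes given by symbol alone, the sequence windows and the comparison of gene starts and positions along genes were picked once the peak lists were known. Alternatives covered the overlap, the width and distance limits, the gene types, the H3K4me3 distance, merging of peaks and the list used as the base.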

Additional observations from a re-analysis of the deposited data

Results flagged for a closer look

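The X chromosome lay outside the rule. By its remaining criteria, 162 of 314 distal control H3K27ac peaks without H3K4me3 on the X were shared with the mutant list, 51.6% (interval 46.1 to 57.1), and the median share of width covered was 33.0%, beside 43.3% on chromosomes 1 to 19. This signal is reported because the comparisons above do not use the X. The difference was not tested.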

How the results depend on the processing

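No paired analysis was possible because the 2 libraries of a condition and mark share 1 deposited list, and for the same reason no replicate could be left out. In all, 7 values were recomputed under 10 alternatives: the number of regions (1676), the share of distal peaks without H3K4me3 that were shared (48.5%), the share of region bases covered in mutant embryos (45.4%), the share of regions under 50% coverage (56.0%), the median ratio of widths (0.66), the share with 2 or more mutant peaks (21.7%) and the share in gene bodies (64.7%). Of the 70 recomputed values, 41 moved by less than the counting error, or for the number of regions by less than 1.5 times, and 29 by more. When 50% of the region had to be covered, they were 737, 21.3%, 76.1%, 0 (by construction), 1.08, 25.4% and 70.3%, in the same order. A lower width limit of 3000 bp gave 1063 regions, 57.7% shared, 59.7% under 50% coverage, a ratio of 0.58 and 27.1% with 2 or more mutant peaks. A distance of 50 kb from gene ends gave 625 regions, 42.8% shared, 40.3% of bases covered, 63.4% under 50% coverage, a ratio of 0.49 and 48.5% in gene bodies. Distance from genes of every type put 69.04% in gene bodies. Merging of peaks less than 1 kb apart left 10.4% with 2 or more mutant peaks and 61.6% in gene bodies. Common limits on gap and width, chosen after seeing the data, gave a ratio of 0.71 and 15.1% with 2 or more mutant peaks. With the mutant list as the base, 31.8% were shared, 51.7% of bases were covered, 48.4% were under 50% coverage, the ratio was 0.99, 10.2% met 2 or more peaks and 67.9% lay in gene bodies. The cause of these shifts was not tested, except where the alternative fixes them.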
